A study of Mus musculus with 17 samples.

Results

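The adult alpha-globin genes Hba-a1 and Hba-a2 encode the alpha chains of adult haemoglobin. They were followed here as partners in multi-way DNA contacts, seen from the R2 enhancer and from a CTCF site upstream of the enhancers. Members were taken by position: pairs of NlaIII fragments with at least 1 fragment midpoint on chromosome 11 between 32181000 and 32200000 (mm9), the gene stretch, and no fragment in the enhancer cluster at 32141000 to 32172000. Of 514959 fragment pairs in the R2 table, 17207 were members, and of 448951 in the alpha CTCF table, 13567 were. The gene stretch holds 90 NlaIII fragments. Pairs that join it with the enhancer cluster, 4300 and 1449 in the R2 and the alpha CTCF table, were left out by definition.

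The assay was Tri-C, in which NlaIII, a restriction enzyme, cuts cross-linked chromatin, the ends are ligated, and molecules with a viewpoint fragment are enriched. A read that carries the viewpoint with at least a pair of further fragments reports their contact on a single allele. The erythroid group was made of primary Ter-119+ cells from spleens of female C57BL/6 mice that had received 3 doses of phenylhydrazine, 12 hours apart, and were used on day 5. The other group was the E14 mouse embryonic stem (ES) cell line, of strain 129/Ola. Strain therefore goes with cell type, and their effects cannot be told apart. No group carried an edited allele or a transgene in the labels, and the line stands for a single genotype. Each group had 3 biological replicates, sequenced as 10 erythroid and 7 ES libraries. Whether replicates came from separate animals or cultures is unstated in the labels, so the p-values measure the spread between these samples, which may be technical. Cell type markers cannot be read from DNA contacts, so the cell type labels were not checked against the data.

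In mouse the cluster runs from the embryonic gene Hba-x through Hba-a1 to Hba-a2, with the theta-like gene Hbq1b between the adult genes and Hbq1a after them, in the order of RefSeq's GRCm38.p6 gene table. The adult genes are silent in ES cells and are among the most strongly transcribed genes of red cell precursors. Their transcription depends on a group of upstream enhancers, of which R2 is among the strongest, and CTCF sites on both sides of the cluster are known to limit the stretch within which these enhancers act. The gene copies arose by duplication and encode nearly the same protein.

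How alike the copies are bears on every contact count below, so their promoter is shown. RefSeq's promoter windows of Hba-a1 and Hba-a2 hold 297 of 297 identical bases after a shift of 3 bases between the annotated starts. The 250 bases upstream of the start of Hba-a1 (GRCm38.p6, chr11:32283422-32283671, plus strand) are printed once, with GATAAG, the core of a GATA factor motif, CCAAT and TATAAG in capitals.
Hba-a1 upstream: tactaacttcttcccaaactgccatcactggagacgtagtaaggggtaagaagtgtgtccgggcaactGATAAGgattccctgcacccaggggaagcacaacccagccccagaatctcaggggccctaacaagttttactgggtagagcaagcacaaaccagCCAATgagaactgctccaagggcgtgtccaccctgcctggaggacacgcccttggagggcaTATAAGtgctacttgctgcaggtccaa
Each of these motifs was found once on either strand in the windows of both genes, and they do not overlap each other. Among 32851 promoter windows of the same length, GATAAG was in 6.55%, CCAAT in 33.8% and TATAAG in 6.65%.

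NlaIII cuts at CATG, which sets where a fragment ends and thus what the assay can resolve. The upstream windows of both genes hold no CATG, against 53.9% of all windows with at least 1, and the first CATG after the transcription start lies at the start codon. It is shown in capitals within 24 bases for both genes (GRCm38.p6, chr11:32283694-32283717 and chr11:32296511-32296534).
Hba-a1 start codon: tcaggaagaaacCATGgtgctctc
Hba-a2 start codon: tcaggaagaaacCATGgtgctctc
These letters are identical, so a junction at the start codon reads the same in both copies. Coordinates were not converted between builds, and the mm9 fragments below were not assigned to exons.

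Contact levels are given as contact pairs per 1000 pairs of the whole table, and differences were tested with edgeR's quasi-likelihood test, erythroid over ES, with Benjamini-Hochberg adjusted p under 0.05 as the threshold. Totals per replicate ran from 139337 to 469501 in the R2 table and from 129858 to 459669 in the alpha CTCF table. ES replicate 2 was the shallowest in both. In the R2 table pairs with both fragments off chromosome 11 took 40.9% to 56.9% of an erythroid library and 12.5% to 24.2% of an ES library, and levels on the table total move with that share. In the alpha CTCF table they took 18.5% to 33.0% of an erythroid library and 22.6% to 34.2% of an ES library. Erythroid replicate 3 stood apart, with the highest member share in both tables, so results that rest on it are also given without it.

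From R2, pairs of the adult genes and the stretch around them took more of the table in erythroid cells. Per 1000 pairs, the erythroid replicates held 52.9, 53.2 and 65.8 member pairs and the ES replicates 31.2, 34.1 and 33.3. The groups did not overlap. As shares of the table these were 5.73% ± 0.737 and 3.29% ± 0.147 (SD, n = 3), a difference of 2.44 percentage points. The exact two-sided permutation p was 0.1, the smallest that 3 against 3 can give, and 0.178 after adjustment over 16 shares. Among pairs with both fragments on chromosome 11 the shares were 13.6% ± 1.18 and 4.32% ± 0.146 (SD, n = 3), so the distance between the groups was wider on that base. That base rests on the chromosome labels of the fragments, which are in doubt for partners of the gene stretch, as given below. The level on the table total also holds pairs with such labels. Member pairs labelled with other chromosomes stood at 13.2 ± 1.20 per 1000 in erythroid and 3.11 ± 0.977 in ES cells (SD, n = 3). Pairs of touching fragments within the stretch stood at 10.4 ± 3.22 and 6.58 ± 2.59.

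Seen from the alpha CTCF site, the erythroid replicates held 35.2, 26.1 and 55.5 member pairs per 1000 and the ES replicates 27.1, 29.9 and 28.1. Here the groups overlapped, since erythroid replicate 2 lay under every ES replicate. The shares were 3.90% ± 1.51 and 2.84% ± 0.141 (SD, n = 3), with an exact permutation p of 0.4. Without erythroid replicate 3 the difference fell from 1.06 to 0.231 percentage points.

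**Figure D1:**
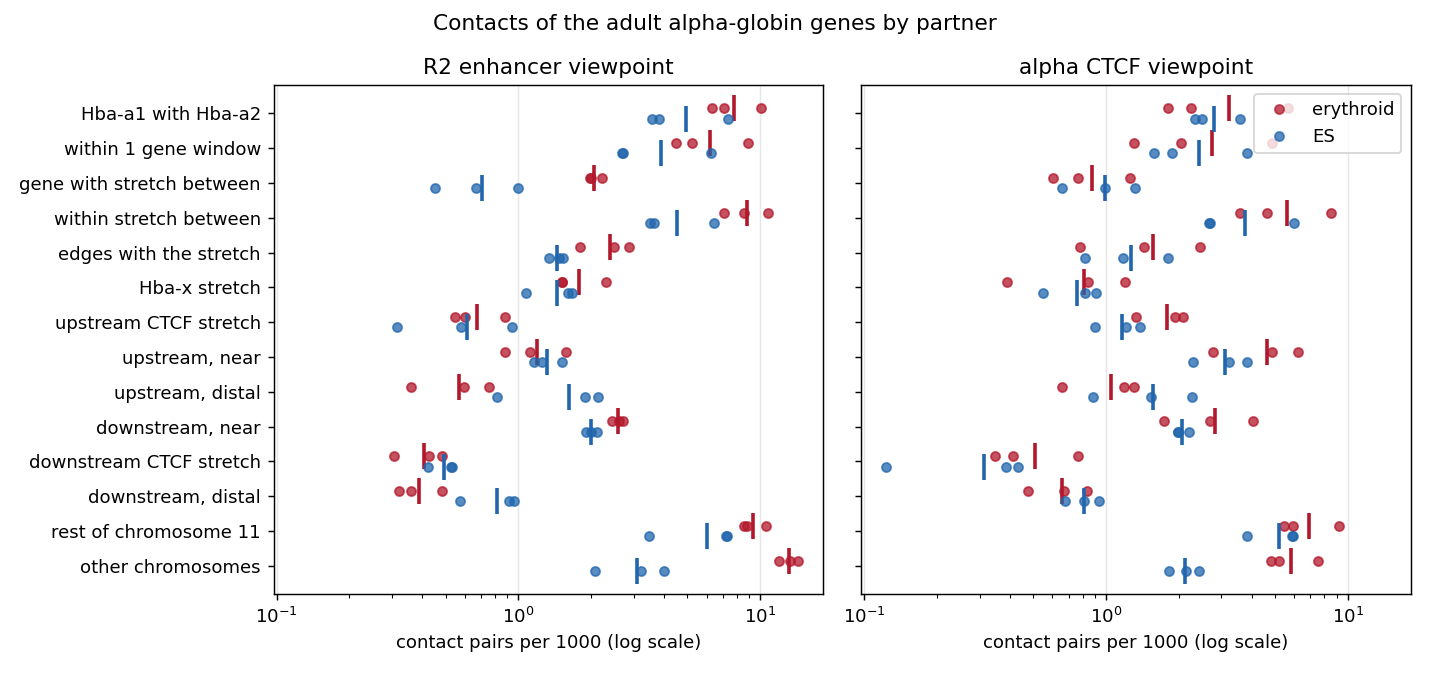
Contact pairs per 1000 pairs of the table (log axis) between the gene stretch and each partner, for the R2 and the alpha CTCF viewpoint. Points are the 3 biological replicates of each group and bars their means. From R2, erythroid (red) lies above ES (blue) without overlap for a gene with the stretch between, within that stretch and for the edges. The same holds for the near downstream segment, the rest of chromosome 11 and other chromosomes. ES lies above erythroid without overlap for the distal upstream and distal downstream segments.

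Pairs within the stretch were dominated by touching fragments and by fragments of both gene copies. From R2, touching fragments made up 37.7% ± 2.80 of the pairs with both ends in the stretch in erythroid cells and 42.4% ± 2.78 in ES cells (SD, n = 3). Pairs 12 to 14 kb apart made up 31.5% ± 2.34 and 34.1% ± 0.932. The exact permutation p was 0.2 for each share, where 0.1 is the smallest possible, so no difference was shown in either. Summed over erythroid replicates, a possible fragment pair 4 to 8 kb apart held 0.809 counts, a pair 8 to 12 kb apart 1.08, a pair 12 to 14 kb apart 33.4 and a pair 14 to 20 kb apart 1.63. In ES cells the same series ran 0.217, 0.310, 13.2 and 0.435. The rise at 12 to 14 kb thus stood in both cell types, and its separation is that of the gene copies: 8 fragments of Hba-a1 have a fragment of equal length exactly 12817 bp further on, in Hba-a2.

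**Figure D2:**
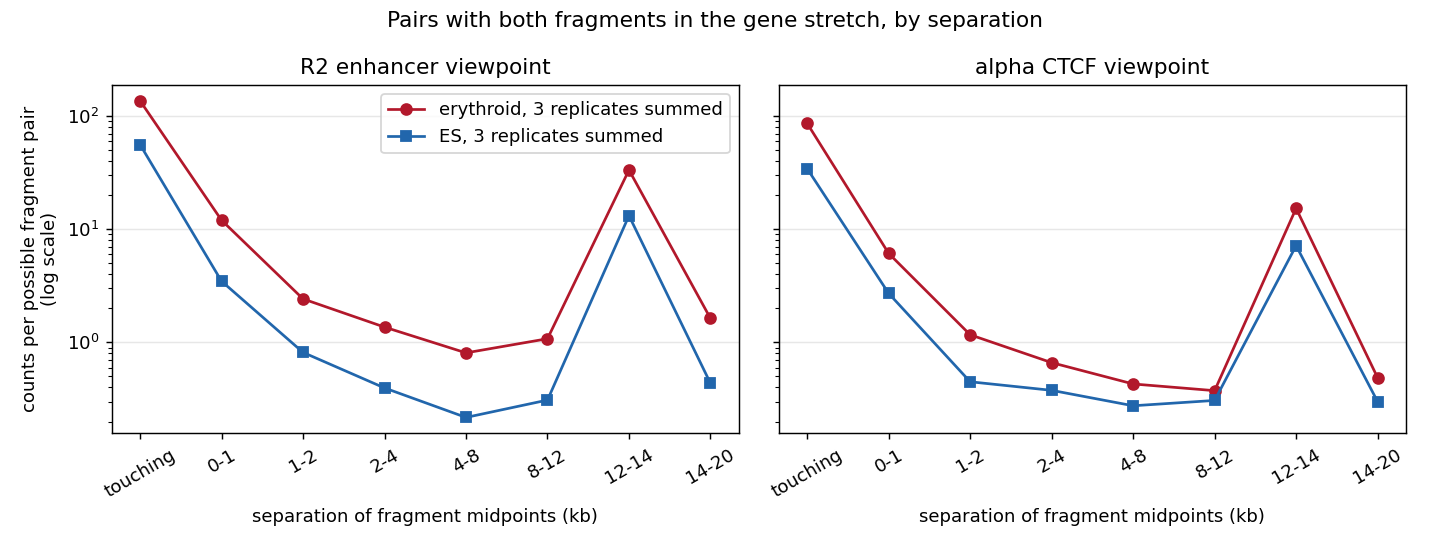
Counts per possible fragment pair (log axis, 3 replicates summed) against the separation of the fragment midpoints in kb, for pairs with both fragments in the gene stretch. Counts fall steeply from touching fragments and stand higher again at 12 to 14 kb, in erythroid (red) and ES (blue) and from both viewpoints.

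The Hba-a1 window (32182000 to 32185000) and the Hba-a2 window (32195000 to 32198000) were linked to each other at 6.30, 7.11 and 10.04 pairs per 1000 in the erythroid replicates and 3.58, 7.38 and 3.81 in the ES replicates from R2. The groups overlapped through ES replicate 2. The log2 change was 0.67 (SE 0.32, adjusted p = 0.0786), which did not pass. With the alpha CTCF viewpoint the levels were 2.25, 1.80 and 5.65 against 2.499, 3.58 and 2.34, and the log2 change of 0.21 (SE 0.39, adjusted p = 0.807) turned to -0.47 without erythroid replicate 3 and to -0.32 when each fragment pair was counted once per library. Counted once, the R2 value was 0.04 (adjusted p = 0.916), and on the chromosome 11 total it was 1.79 and past the threshold. The contact between the genes therefore had no call that held over the ways of counting.

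Most gene with gene counts lay on counterpart fragments. From R2, 77.0% of the erythroid and 72.7% of the ES counts joined fragments that both had an equal-length counterpart, and 98.2% and 98.4% joined fragments 12 to 14 kb apart. The positions of the gene windows favour that distance: of 152 gene with gene fragment pairs seen, 106 lay 12 to 14 kb apart. The leading pair joined the 323 bp fragment of Hba-a1 (32183769 to 32184091) with its own counterpart in Hba-a2 (32196586 to 32196908), at 247, 214 and 351 counts in the erythroid and 199, 109 and 123 in the ES replicates. The next joined the 733 bp fragment that precedes the equal-length set in Hba-a1, 32182975 to 32183707, with the 715 bp fragment 32195810 to 32196524, at 221, 233 and 266 against 168, 96 and 70 counts. These fragments end at matching places of the copies, although their lengths differ. The same fragment pairs led from the alpha CTCF site, with 403 and 315 erythroid and 226 and 203 ES counts in all.

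The placement of counts on the copies was then compared. For neighbouring fragments of the equal-length set, which touch when both lie in the same copy, R2 counts with both ends in Hba-a1 were 281, 345 and 1183 in the erythroid replicates and those with both ends in Hba-a2 were 258, 355 and 914. Counts with an end in each copy, more than 12 kb apart, were 548, 670 and 2127. The ratio of cross-copy to same-copy counts was 0.996 ± 0.0337 in erythroid and 1.01 ± 0.0705 in ES cells (SD, n = 3). It was 0.979 ± 0.0444 and 0.943 ± 0.0663 from the alpha CTCF site. A fragment that touches its neighbour was thus counted with that neighbour's counterpart about as often as with the neighbour itself. For fragments of the set further apart in the copy the R2 ratio was 0.941 ± 0.0410 and 1.01 ± 0.127. From the alpha CTCF site it was 0.920 ± 0.116 and 0.851 ± 0.0340, with ES replicates at 0.814, 0.881 and 0.857. Most single fragments were near even between the copies from R2: the counts of the 323 bp fragment were 2828 in Hba-a1 and 2806 in Hba-a2 in erythroid cells and 1278 and 1287 in ES cells. Over the 8 fragments the median absolute log2 ratio between the copies was 0.04 in erythroid and 0.02 in ES cells from R2.

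The 36 bp and the 92 bp fragments departed from this. From R2 the erythroid counts of the 36 bp fragment were 1845 in Hba-a1 and 970 in Hba-a2, a log2 ratio of -0.93, and those of the 92 bp fragment were 2556 and 2028, a log2 ratio of -0.33. Seen from the alpha CTCF site, the 36 bp fragment had a log2 ratio of 0.45 in erythroid and -0.81 in ES cells, so no copy was favoured throughout. The placement of reads that match both copies is not given in these sources, and its part in the counts was not tested. Levels of the Hba-a1 and the Hba-a2 window are therefore given side by side, and no difference between them is read.

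**Figure D3:**
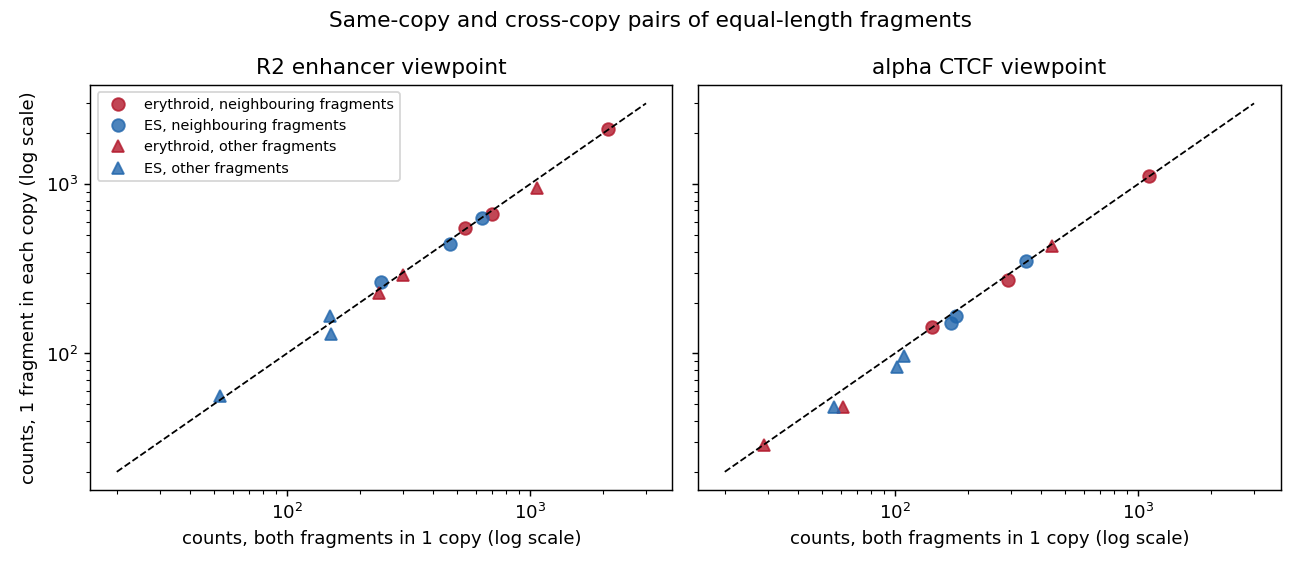
Counts with 1 fragment in each gene copy against counts with both fragments in the same copy (both axes log), for the equal-length fragments; each point is a biological replicate, circles are neighbouring and triangles other fragments. The points lie near the dashed line of equal counts, and the ES triangles from the alpha CTCF site all lie below it.

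Of 60 segment classes with a member, 56 reached the minimum of 30 counts in each table. From R2, 10 were higher and 3 lower in erythroid cells, or 17.9% and 5.36% of the members tested, against 13.8% higher and 37.1% lower over all 116 classes. The median log2 change was 0.47 over the members and -0.42 over all classes. The balance moved with the scale: on the chromosome 11 total 32 member classes were higher and 0 lower, on the window total 25 and 0, with TMM 24 and 2 and with DESeq2 27 and 2. Counting each pair once gave 9 and 10, and leaving out touching fragments 7 and 9. The median over all classes moved as well. It was 0.64 on the chromosome 11 total, 0.57 on the window total, 0.05 with TMM and 0.11 with DESeq2. Counted once it was -0.77, and without touching fragments -0.86. With the alpha CTCF viewpoint, 3 member classes were higher, 5.36%, and 0 lower, against 11.2% and 2.59% over all classes. At an unadjusted p under 0.05, edgeR had 6 higher and 0 lower there, and DESeq2 called 5 higher and 1 lower. Shares over all classes were taken only for the main setting and adjusted p. Member counts under other settings are therefore not read as particular to the members.

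The stretch between the genes, 32185000 to 32195000, rose with the genes in erythroid cells. From R2 its pairs with the Hba-a1 window were at 0.972, 0.785 and 0.867 per 1000 in the erythroid and 0.216, 0.136 and 0.431 in the ES replicates, a log2 change of 1.73 (SE 0.44, adjusted p = 0.00157). Its pairs with the Hba-a2 window were at 1.24, 1.20 and 1.11 against 0.452, 0.316 and 0.563, a log2 change of 1.41 (SE 0.38, adjusted p = 0.00233). All erythroid replicates lay above all ES replicates in both classes. Both calls held when each fragment pair was counted once (1.45 and 1.26) and when touching fragments were left out (1.60 and 1.21). In the alpha CTCF table the log2 changes of the same classes were -0.66 (SE 0.51, adjusted p = 0.489) and 0.12 (SE 0.44, adjusted p = 0.854), with overlapping groups.

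Pairs inside the stretch between were at 8.58, 7.05 and 10.7 per 1000 in the erythroid and 3.48, 6.41 and 3.64 in the ES replicates from R2. Their log2 change was 0.96 (SE 0.31, adjusted p = 0.0106), with groups that did not overlap. The call was lost when each pair was counted once (0.42), when touching fragments were left out (0.80), without ES replicate 1 (0.81) and without ES replicate 3 (0.83). Pairs of the stretch between with the right edge, the last 2 kb of the gene stretch, rose by 1.27 (SE 0.38, adjusted p = 0.00589), from 0.508, 0.352 and 0.609 in ES to 1.25, 0.934 and 1.37 in erythroid replicates, a call that counting once also ended (0.24). These segments also hold fragments of equal length, 13024 bp apart, such as the 337 bp fragments 32186080 to 32186416 and 32199104 to 32199440. The part of read placement between such fragments in this class was not tested. A fragment pair of the gene stretch was counted 5.80 to 10.2 times per library and replicate from R2, against 2.55 to 3.29 times for a member with a partner elsewhere.

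Within a gene window no class passed. From R2 pairs within the Hba-a1 window stood at 1.86, 2.45 and 4.45 per 1000 in the erythroid and 1.10, 2.95 and 0.966 in the ES replicates (log2 change 0.81, SE 0.39, adjusted p = 0.0771). Pairs within the Hba-a2 window stood at 2.62, 2.77 and 4.42 against 1.60, 3.33 and 1.71 (0.57, SE 0.33, adjusted p = 0.149). ES replicate 2 was high in both, above erythroid replicates 1 and 2, and without it both passed, at 1.499 and 0.98. The Hba-a1 window also passed without erythroid replicate 1 (1.05). Both also passed on the chromosome 11 total, at 1.91 and 1.67.

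At the left, the embryonic gene Hba-x lies between the enhancers and the adult genes. Its stretch met the Hba-a1 window at 0.362, 0.333 and 0.526 per 1000 in the erythroid and 0.267, 0.208 and 0.333 in the ES replicates from R2 (log2 change 0.59, SE 0.46, adjusted p = 0.267). With the Hba-a2 window the values were 0.279, 0.208 and 0.447 against 0.246, 0.222 and 0.338 (0.22, SE 0.49, adjusted p = 0.765). No class of the gene stretch with the Hba-x stretch passed from either viewpoint.

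Further upstream, only the distal segment had lower calls from R2. The upstream CTCF stretch, 32135000 to 32141000, had log2 changes of 0.63 (SE 0.67, adjusted p = 0.423) with the Hba-a1 window and 0.81 (SE 0.63, adjusted p = 0.267) with the Hba-a2 window, and the upstream near segment 0.15 (SE 0.50, adjusted p = 0.852) and -0.13 (SE 0.50, adjusted p = 0.862). None of these passed. The upstream distal segment, 32001000 to 32101000, lies beyond the CTCF sites that flank the enhancers. It met the Hba-a1 window at 0.0866, 0.0243 and 0.0831 per 1000 in the erythroid and 0.371, 0.151 and 0.445 in the ES replicates, a log2 change of -2.31 (SE 0.60, adjusted p = 0.00209). It met the Hba-a2 window at 0.0942, 0.111 and 0.102 against 0.364, 0.201 and 0.666, a change of -2.002 (SE 0.54, adjusted p = 0.00243). The groups were apart in both. On the chromosome 11 total the changes were -1.33 (adjusted p = 0.0659) and -0.92 (adjusted p = 0.159), so the calls ended there, and the second also ended without ES replicate 3 (-1.48). The stretch between fell with the same segment by 1.12 (SE 0.44, adjusted p = 0.0362), with overlapping groups and a change of -0.08 on the chromosome 11 total. That call was lost without erythroid replicate 2 (-0.85), ES replicate 1 (-0.88) or ES replicate 3 (-1.01). The distal segment also changed by -1.99 (SE 0.32) with other chromosomes, and 37.1% of all classes were lower. Its drop is therefore not read as particular to the adult genes.

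Within the members, which leaves out the rest of the table, the upstream distal share was 1.00% ± 0.384 in erythroid and 4.96% ± 2.22 in ES cells from R2 (SD, n = 3). The downstream distal share, at 32227000 to 32301000, was 0.670% ± 0.0632 and 2.498% ± 0.705. The upstream near share, at 32101000 to 32135000, was 2.05% ± 0.363 and 4.00% ± 0.743. The downstream near share, at 32200000 to 32219000, was 4.54% ± 0.396 and 6.10% ± 0.0995, and that of the downstream CTCF stretch, at 32219000 to 32227000, 0.727% ± 0.232 and 1.51% ± 0.239. In each of these shares the erythroid replicates lay below all ES replicates, with an exact permutation p of 0.1 and an adjusted p of 0.178. The share with other chromosomes was higher in erythroid cells, 23.4% ± 4.65 against 9.49% ± 3.07, and shares of a whole move against each other. The share of a gene with the stretch between was 3.64% ± 0.595 and 2.15% ± 0.828 and the share of both genes 13.5% ± 1.67 and 14.8% ± 5.89, the latter with an exact p of 1.0. For the alpha CTCF viewpoint the upstream distal share was 2.75% ± 0.550 and 5.56% ± 2.55 (exact p = 0.2), the upstream near share 11.9% ± 1.68 and 11.03% ± 3.04 (exact p = 0.8), the downstream distal share 1.74% ± 0.213 and 2.87% ± 0.543 (exact p = 0.1), the share of a gene with the stretch between 2.25% ± 0.0776 and 3.45% ± 0.990 (exact p = 0.1, adjusted 0.533) and the share of both genes 7.82% ± 2.06 and 9.84% ± 1.91 (exact p = 0.3).

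Downstream, pairs of the stretch between with the near segment, 32200000 to 32219000, rose from R2 by 0.86 (SE 0.32, adjusted p = 0.0268). The levels were 1.91, 2.00 and 1.85 per 1000 in the erythroid and 1.08, 0.990 and 1.09 in the ES replicates. Counting each pair once took the change to 0.01, and the call was lost without any of erythroid replicates 1 (0.87), 2 (0.83) and 3 (0.89) or ES replicate 1 (0.88). The gene windows themselves had lower levels with this segment, at 0.128, 0.174 and 0.232 against 0.250, 0.359 and 0.258 for Hba-a1 and 0.215, 0.108 and 0.311 against 0.362, 0.538 and 0.394 for Hba-a2. Their changes of -0.68 (adjusted p = 0.250) and -1.01 (adjusted p = 0.0801) did not pass.

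Pairs with the rest of chromosome 11 passed for the Hba-a1 window from R2, at 1.51, 2.08 and 2.11 per 1000 in the erythroid and 1.40, 0.495 and 1.11 in the ES replicates. The log2 change of 0.92 (SE 0.36, adjusted p = 0.0368) lost its call without erythroid replicate 2 (0.85), erythroid replicate 3 (0.83), ES replicate 2 (0.60) or ES replicate 3 (0.99). For the Hba-a2 window the values were 1.65, 2.01 and 2.32 against 1.60, 0.990 and 1.43 (0.57, SE 0.33, adjusted p = 0.149).

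Pairs that the tables assign to other chromosomes had the smallest adjusted p-values of the member classes from R2, and the assignment itself is in doubt. Of 4205 such partner fragments of the gene stretch in the R2 table, 0 crossed a fragment boundary of chromosome 11, while 1438 did once all boundaries were moved 1 kb. For the alpha CTCF table the numbers were 0 and 696 of 2065. The coordinates thus followed the restriction fragments of chromosome 11, so they were not read as places in the genome, and the levels and shares below describe the class as the tables label it. Values on the chromosome 11 total, here and above, rest on the same labels. From R2 the Hba-a1 window held 2.95, 3.04 and 2.65 such pairs per 1000 in the erythroid and 0.547, 0.194 and 0.788 in the ES replicates, a log2 change of 2.48 (SE 0.39, adjusted p = 5.69e-06). The Hba-a2 window held 2.71, 3.48 and 2.77 against 0.473, 0.330 and 0.755, a change of 2.52 (SE 0.36, adjusted p = 1.15e-06). The stretch between held 6.82, 6.41 and 5.70 against 1.78, 1.43 and 1.99, a change of 1.86 (SE 0.30, adjusted p = 7.36e-06). In these 3 classes every erythroid replicate lay above every ES replicate, by more than the spread within either group. The right edge rose by 1.63 (SE 0.47, adjusted p = 0.0047), with the call lost without erythroid replicate 2 (1.36), and the left edge had a change of 1.24 (SE 0.61, adjusted p = 0.0816) that did not pass, though it passed on the chromosome 11 total (2.42), with DESeq2 (1.93) and counted once (1.148).

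Pairs of other segments with other chromosomes are given for comparison. From R2 the log2 change with other chromosomes was 0.96 (SE 0.30) for the Hba-x stretch, 0.09 (SE 0.29) for the enhancer cluster, -0.33 (SE 0.30) for the near downstream segment, -1.93 (SE 0.33) for the distal downstream segment and -1.99 (SE 0.32) for the distal upstream segment. Pairs with both fragments off chromosome 11 changed by 1.45 (SE 0.33). These values move with the scale. On the chromosome 11 total the enhancer cluster was at 1.22 (adjusted p = 0.000509) and passed, the near downstream segment turned to 0.77 (adjusted p = 0.0384), pairs off chromosome 11 were at 2.58, and the gene windows at 3.58 and 3.64. Counted once per library the Hba-a1 and Hba-a2 windows stood at 2.19 and 2.15, and with DESeq2 at 3.12 and 3.13.

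From the alpha CTCF site the members' 3 calls were also with other chromosomes. The stretch between held 2.76, 2.64 and 3.67 such pairs per 1000 in the erythroid and 1.20, 1.10 and 0.977 in the ES replicates, a log2 change of 1.47 (SE 0.27, adjusted p = 0.00306). The Hba-a2 window held 1.00, 0.994 and 1.78 against 0.496, 0.578 and 0.363 (1.40, SE 0.38, adjusted p = 0.0274). The right edge held 0.637, 0.476 and 0.840 against 0.206, 0.123 and 0.136 (2.05, SE 0.48, adjusted p = 0.0125). The Hba-a1 window, at 0.689, 0.636 and 1.12 against 0.494, 0.323 and 0.267, had a change of 1.17 (SE 0.43, adjusted p = 0.0976) and was not called. The groups were apart in all 4. The Hba-a2 call was lost without erythroid replicate 1 (1.54), erythroid replicate 3 (1.06), ES replicate 1 (1.43) or ES replicate 3 (1.23), and when each pair was counted once (1.10, adjusted p = 0.0589). The right edge call was lost without erythroid replicate 1 (2.07) or ES replicate 3 (1.96). Outside the members, the near downstream segment changed by 1.78 (SE 0.24, adjusted p = 0.000523) and the downstream CTCF stretch, 32219000 to 32227000, by 1.46 (SE 0.28, adjusted p = 0.00365) from this viewpoint.

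Of the members, pairs with other chromosomes took 25.1%, 26.9% and 18.1% in the erythroid and 10.3%, 6.09% and 12.1% in the ES replicates from R2, and 14.8%, 18.4% and 13.5% against 8.99%, 7.14% and 6.46% from the alpha CTCF site. The groups were apart in both, each with an exact permutation p of 0.1.

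**Figure D4:**
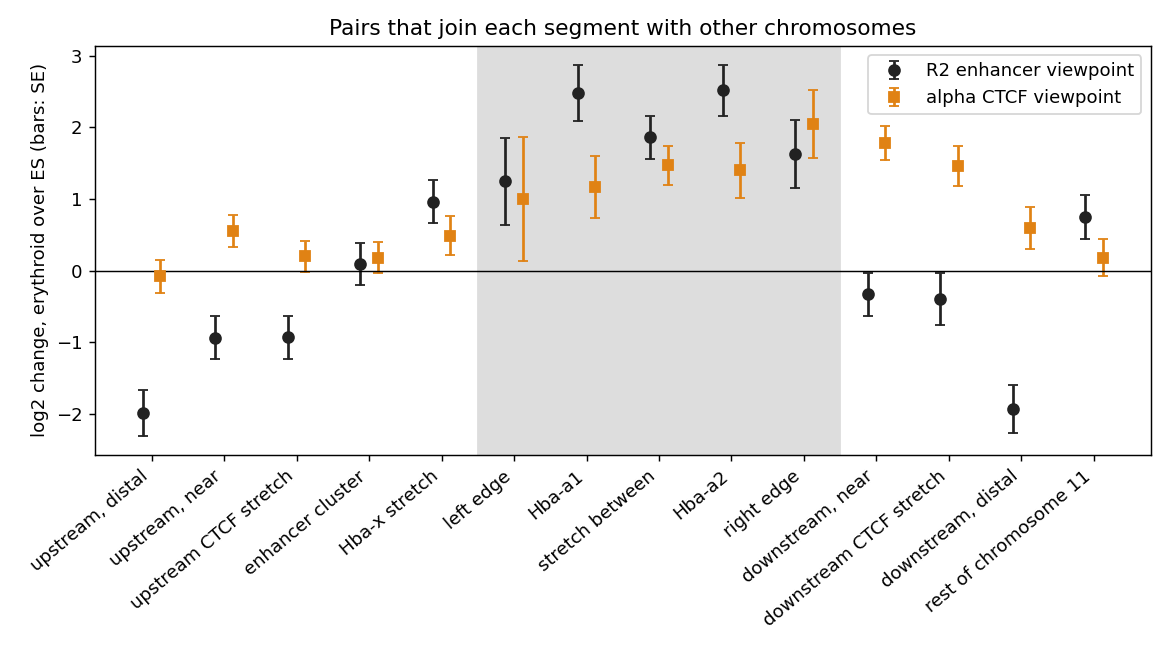
Log2 change, erythroid over ES, of pairs that join each segment of chromosome 11 with other chromosomes, with the SE as bars; the gene stretch is shaded. From R2 (circles) the gene windows stand highest, at 2.48 and 2.52, while from the alpha CTCF site (squares) the near downstream segment, at 1.78, and the downstream CTCF stretch, at 1.46, stand above the gene windows, at 1.17 and 1.40.

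Pairs of 3800 bp bins gave a finer map. From R2, 123 member bin pairs reached 30 counts, of which 7 were higher and 1 lower in erythroid cells, against 2.35% higher and 30.3% lower over all 938. The named pairs all rose. The middle bin of the stretch, 32188600 to 32192399, met the bin that holds most of the Hba-a2 window, 32196200 to 32199999, at 0.471, 0.201 and 0.356 per 1000 in the erythroid and 0.104, 0.00718 and 0.0422 in the ES replicates (log2 change 2.62, SE 0.64, adjusted p = 0.0017). It met the bin 32181000 to 32184799, with most of the Hba-a1 window, at 0.215, 0.142 and 0.270 against 0.0371, 0.0502 and 0.0938 (1.80, SE 0.70, adjusted p = 0.0426). Next to it, the pair with 32192400 to 32196199 was at 0.561, 0.420 and 0.288 against 0.130, 0.0431 and 0.178 (1.82, SE 0.55, adjusted p = 0.0104). The 4th was 32184800 to 32188599 with 32192400 to 32196199, at 0.369, 0.365 and 0.213 against 0.123, 0.0431 and 0.155 (1.53, SE 0.57, adjusted p = 0.0354). In each of these the erythroid replicates lay above all ES replicates, but separate groups were a condition for naming a pair. Without erythroid replicate 1 the calls of the last 3 were lost, at 1.78, 1.57 and 1.40. The pair with 32181000 to 32184799 was also lost without erythroid replicate 2 (2.01), erythroid replicate 3 (1.57), ES replicate 1 (1.52) or ES replicate 2 (1.71), and the last without erythroid replicate 2 (1.41), ES replicate 1 (1.64) or ES replicate 2 (1.19). The remaining pair joined 32120200 to 32123999, upstream of the CTCF sites, with the Hba-a2 end bin, at 14, 21 and 31 counts in the erythroid replicates and none in the ES replicates, at least 16.9-fold higher against a floor of 3 counts over the group, a call lost without erythroid replicate 2. This pair reached the minimum of 30 counts through the erythroid group alone, so it could only differ, and it is given as a description. It is still included in the 7 higher pairs. The count of 8 calls fell to 3 without erythroid replicate 1, 2 without erythroid replicate 2 and 3 without ES replicate 1, and was 25 with DESeq2. From the alpha CTCF site 0 of 140 member bin pairs passed with edgeR, against 0.516% higher and 0.344% lower over all 1163. At an unadjusted p under 0.05 there were 6 higher and 2 lower, and DESeq2 called 3. Shares over all bin pairs were not taken for these counts or for the R2 count with DESeq2.

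Fragment by fragment, calls from R2 lay in both gene windows, between them and at the right edge. Of 90 fragments 89 reached the minimum, 83 of them with a positive change, and 31 were higher and 0 lower, against 2.33% higher and 41.7% lower over all 1415 fragments of the window. The median log2 change was 0.77 over the gene stretch and -1.94 over all fragments, and the latter was -0.37 with TMM factors, so changes are best read against that median. At an unadjusted p under 0.05, edgeR had 46 higher and 0 lower, and DESeq2 called 85 higher and 0 lower. With DESeq2 the median over all fragments was -0.58, and shares over all fragments were not taken for these counts. By segment, 7 of 12 fragments of the Hba-a1 window, 17 of 49 between the genes, 5 of 17 of the Hba-a2 window, 2 of 9 at the right edge and 0 of 2 at the left edge were higher. The count rests on several libraries: it was 7 without erythroid replicate 1, 11 without erythroid replicate 2, 3 without ES replicate 1 and 14 without ES replicate 3, and 9 without touching fragments.

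The named fragments, those with the largest changes and separate groups, all lay between the genes, where the theta-like gene Hbq1b is found in RefSeq's gene order. The 317 bp fragment at 32186508 to 32186824 was at 1.56, 1.01 and 1.25 per 1000 in the erythroid and 0.280, 0.165 and 0.591 in the ES replicates (log2 change 1.87, SE 0.43, adjusted p = 0.00853). The 211 bp fragment at 32187371 to 32187581 was at 2.06, 2.06 and 1.71 against 0.633, 0.775 and 0.492 (1.62, SE 0.28, adjusted p = 0.00309). Separate groups were a condition for naming a fragment, and neither of these lost its call without any replicate. The 337 bp fragment at 32186080 to 32186416 followed with 1.28, 1.09 and 1.20 against 0.387, 0.165 and 0.680 (1.53, SE 0.43, adjusted p = 0.0165). It is in turn of equal length with a fragment 13024 bp further on, 1 of 2 such fragments at that distance. The 226 bp fragment at 32190103 to 32190328 had a change of 1.51 (SE 0.52, adjusted p = 0.0317) and the 73 bp fragment at 32194315 to 32194387 one of 1.38 (SE 0.48, adjusted p = 0.0317), with the groups apart. These last 3 lost their calls without single replicates: the 337 bp fragment without erythroid replicate 1 (1.47) or ES replicate 1 (1.48), the 226 bp fragment without erythroid replicate 1 (1.68), erythroid replicate 2 (1.37) or ES replicate 1 (1.51), and the 73 bp fragment without erythroid replicate 1 (1.30), erythroid replicate 2 (1.44), ES replicate 2 (1.13) or ES replicate 3 (1.22).

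Fragments at matching places of the gene copies are given side by side. The 323 bp fragment had 2.77 ± 0.468 pairs per 1000 in erythroid and 1.78 ± 0.480 in ES cells in Hba-a1 (log2 change 0.65, adjusted p = 0.0429), and 2.75 ± 0.427 and 1.82 ± 0.609 in Hba-a2 (0.60, adjusted p = 0.0621; SD, n = 3). The 733 bp fragment before the Hba-a1 set had 1.77 ± 0.253 and 1.04 ± 0.155 (0.77, adjusted p = 0.0306), and the matching 715 bp fragment of Hba-a2 1.66 ± 0.0763 and 1.07 ± 0.187 (0.64, adjusted p = 0.0560). The copies fall on different sides of the threshold there, with values within an SD of each other. These levels are per fragment, not per length, so fragments are compared only between groups. Genes, the stretch between and edges are plotted together by distance.

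**Figure D5:**
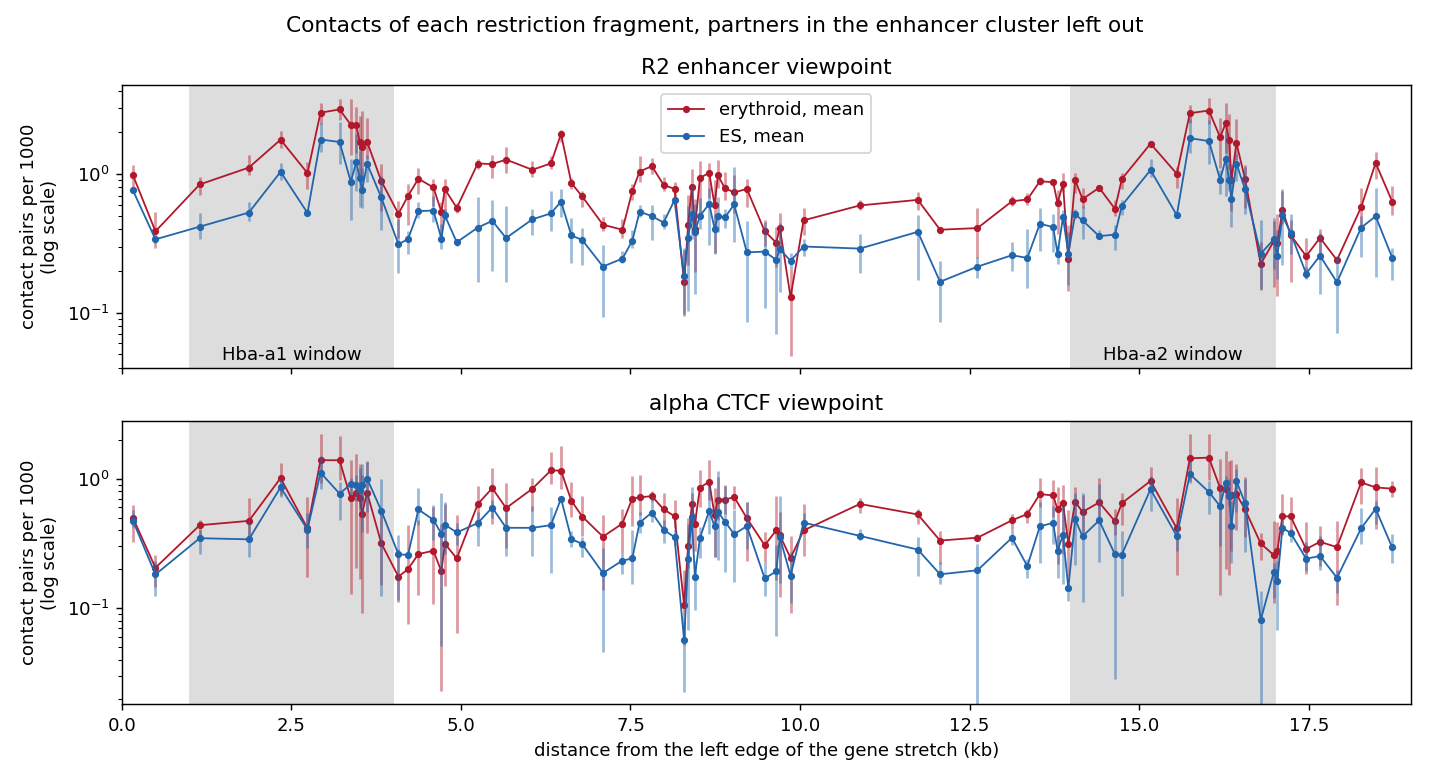
Contact pairs per 1000 (log axis) of each restriction fragment against its distance in kb from the left edge of the gene stretch; lines join group means and vertical bars span the lowest to the highest replicate. From R2 the erythroid line (red) lies above the ES line (blue) at 83 of 89 fragments, and the gene windows are shaded; from the alpha CTCF site the bars overlap more.

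From the alpha CTCF site 0 of 89 fragments passed with edgeR, against 1.39% higher and 0.0% lower over all 1436, while 71 had a positive change. At an unadjusted p under 0.05 there were 15 higher and 0 lower, and DESeq2 called 9 higher. Shares over all fragments were not taken for these counts. The median log2 change was 0.70 between the genes, 0.46 in the Hba-a2 window and -0.07 in the Hba-a1 window. At the ends of the gene stretch the R2 change was -0.01 (SE 0.41, adjusted p = 0.989) for the last fragment outside its left edge and 0.37 (SE 0.31, adjusted p = 0.300) for the first inside, and 1.33 (SE 0.45, adjusted p = 0.0312) for the last fragment inside its right edge and 0.76 (SE 0.40, adjusted p = 0.114) for the first outside.

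Both viewpoints were captured from the same libraries, so their levels can be set against each other within a replicate. Each level is on its own table total, so the ratio also moves with the share of pairs off chromosome 11. That share was apart between the groups from R2 and overlapped from the alpha CTCF site. The ratios were not taken on the chromosome 11 total, so a difference of scale between the viewpoints is part of the values below. The log2 ratio of the R2 to the alpha CTCF level over all members was 0.586, 1.03 and 0.245 in the erythroid and 0.206, 0.190 and 0.244 in the ES replicates, a difference of 0.41, with erythroid replicate 3 only just above ES replicate 3. Counted once the difference was 0.12 (exact p = 0.8) and without touching fragments 0.21 (exact p = 0.5), and it was 0.20 without erythroid replicate 2. For a gene with the stretch between, the ratio was 1.54, 1.71 and 0.66 against 0.02, -1.54 and 0.01, a difference of 1.81 with groups apart. For the upstream distal segment it was -0.66, -0.88 and -1.13 against 0.30, -0.11 and -0.08, a difference of -0.93, also with groups apart. For both genes the difference was 0.68 (exact p = 0.2), for other chromosomes 0.70 (exact p = 0.2) and for the upstream near segment -0.70 (exact p = 0.2). The exact permutation p for all members, a gene with the stretch between and the upstream distal segment was 0.1 each, the smallest possible, and 0.25 after adjustment over 15 classes.

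Outside the gene stretch and the enhancer cluster, the bins whose levels followed the gene stretch most closely were sought over the 6 replicates among 64 bins, with levels taken from pairs that hold neither the gene stretch nor the enhancer cluster on the other end. From R2 the likeness was weak: the closest, 32177200 to 32180999, had a Pearson r of log2 levels of 0.09, and the next, 32200000 to 32203799 and 32173400 to 32177199, of -0.24 each. From the alpha CTCF site the closest was the same bin beside the stretch, with an r of 0.91, before 32234200 to 32237999 with 0.88 and 32207600 to 32211399 with 0.76. These values share library and depth, and erythroid replicate 3 was highest in all 3 bins and in the gene stretch.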

How the data were processed

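Counts of contact pairs per library were taken from the authors' deposited tables for the R2 and the alpha CTCF viewpoint, whole numbers as the files show. Per the submitters' processing notes, Trim Galore, Bowtie and mm9 were used, with no version or order. Duplicate removal, read filters and the placement of reads that match both gene copies are not given in the sources used here. Technical replicates were summed to 3 biological replicates a group. Fragment pairs were summed by segment, by pairs of 3800 bp bins and by fragment (partners in the enhancer cluster left out) and tested with edgeR's quasi-likelihood test (edgeR 4.0.16, R 4.3.3), the table total as library size, no normalization factors, a minimum of 30 counts and Benjamini-Hochberg adjustment over all features of a table. Each SE was derived from the fitted change and its F statistic. Shares and viewpoint ratios were tested by exact two-sided permutation. DESeq2 1.42.0 and other alternatives are in the closing section. The text names up to 5 called bin pairs and fragments per direction with separate groups. Members and lists were chosen with earlier results of these data known. The fit was tried on simulated counts with 4-fold changes, balanced between directions, and a single dispersion for all features. For R2 it called 23 of 23 changed classes, 171 of 187 bin pairs and 199 of 200 fragments, with 2, 5 and 6 false calls. The simulated counts held no shift of most features in 1 direction, unlike the R2 bin pairs and fragments. Their dispersion was a fixed setting, not estimated from these data. These rates therefore need not hold for the real counts.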

Additional observations from a re-analysis of the deposited data

Results flagged for a closer look

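In the R2 table, 7.51% of the pairs of erythroid replicate 3, technical replicate 2, were members, the highest of the 10 erythroid libraries. The next library had 6.25% and the lowest 4.91%, so its gap to the next was 0.486 of the range, past the critical value of 0.466 for 10 libraries. In the alpha CTCF table no library stood apart in this way. If libraries were independent, chance would flag about 1 in 20 such groups, and 4 were examined. The erythroid libraries, however, stem from only 3 biological replicates, and their R2 member shares went with the replicate. The other libraries of erythroid replicate 3 had 6.13%, 6.18% and 6.25%, and those of erythroid replicates 1 and 2 had 4.91% to 5.59%. The critical value and the rate of 1 in 20 therefore need not hold here, and the flag is given as a description. Without erythroid replicate 3 the R2 difference in member share was 2.02 percentage points.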

How the results depend on the processing

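Of the values of single classes, bin pairs and fragments under alternatives, 462 kept their direction and side of the threshold, 80 lost the call, 19 gained one and 5 reversed. Member classes called from R2, 13, came to 25 on the window total, 32 on that of chromosome 11, 26 under TMM and 29 under DESeq2, and to 10 to 19 without single replicates. Called bin pairs, 8, came to 20, 21, 25 and 25 in the same order, to 5 with a minimum of 10 counts, 3 with none, 1 on first technical replicates alone and 2 to 12 without single replicates. Called fragments, 31, came to 73, 77, 85 and 85, to 18 on first technical replicates, 9 without touching fragments and 3 to 35 without single replicates. Shares over all features were not taken under the alternatives, so these counts are not read as particular to the members. With the replicate number as a block, R2 had 13 classes, 3 bin pairs and 18 fragments, and alpha CTCF 2, 0 and 0. The numbers do not pair the samples: same-numbered correlations were -0.13, -0.15 and -0.36 from R2 and 0.29, 0.21 and -0.09 from alpha CTCF. From alpha CTCF, DESeq2 called 6 classes, 3 bin pairs and 9 fragments. Bin pairs called there were 1 on first technical replicates and 1 counted once, and 0 without any single replicate. Fragments called were 5 on the window total, 3 on the chromosome 11 total, 5 with TMM, 7 counted once, 1 without equal-length fragments and 0 to 1 without single replicates, and classes 1 to 3. The cross-copy ratio of the further fragments from alpha CTCF moved to 0.996 counted once. The alpha CTCF change between Hba-a1 and Hba-a2 reversed with TMM (-0.044), DESeq2 (-0.12), first technical replicates (-0.039) and counting once (-0.32), and ran from -0.47 to 0.50 without single replicates. The R2 difference in the share of both genes reversed without equal-length fragments (0.0914 percentage points) and ran from -3.05 to 2.06 without single replicates. The alpha CTCF difference in the share of a gene with the stretch between was 0.0234 on first technical replicates, and that of the upstream near share ran from -0.832 to 2.12 without single replicates. The cause of these moves was not tested. Leaving out touching fragments was chosen after seeing the data. The main limits are 3 replicates a group, ES replicate 2 with the fewest counts, repeated counts of the same fragment pair, and gene copies that the counts do not separate.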
